A study of Carthamus tinctorius with 15 samples.

Results

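The genes described here are the 300 of 33242 genes of safflower (Carthamus tinctorius) whose expression in flower stood farthest above that in root, stem and leaf. They were chosen from the expression values themselves. For each gene the mean of log2(FPKM + 1) was taken over the 3 libraries of a tissue, and the highest of the means of root, stem and leaf was subtracted from the mean of flower. This difference is called the margin below, and the 300 genes of largest margin are the members. FPKM scales reads to gene length and to library size, so levels of different genes can be compared per length. The gap between flower and the other tissues was therefore set by the choice, and it is given as a description without a test.

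A flower joins organs of different kinds, and each kind expresses genes that other organs of the plant hold at low levels. In seed plants, pollen and the anther tissue that feeds it make transcripts for the pollen wall, its lipid coat and tube growth. Petals express enzymes of pigment and scent formation, and the florets of safflower are known for yellow and red quinochalcone pigments. These are general facts about flowers. The table used does not pair its genes with names, so no member is given a role here, and each is called by its row number in the table, where row 1 is the first line of values.

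The values came from RNA-seq of root, stem, leaf and flower, in 3 libraries per tissue, which made 12. The labels give the tissue and a replicate number for each library. They give no cultivar, plant age, treatment, flower stage or floral organ, and separate plants are not mentioned. Every p-value below therefore sets a difference between tissues against the spread of these libraries only, and that spread may be technical. Library totals, recovered from the values, ran from 26183138 to 31500664 reads. In whole tissues, fewer cells of a type and less RNA per cell cannot be told apart. The labelled tissues were not checked against marker genes, because gene names were not used here.

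The margin of the members ran from 4.30 to 11.09 on the log2(FPKM + 1) scale, with a median of 5.48. It was at least 6 in 109 members, at least 8 in 34 and at least 10 in 8. When genes were chosen by the same rule for other tissues, the 300 genes of largest margin had a median margin of 2.74 for root (2.04 to 7.80) and 3.21 for leaf (2.41 to 8.44). The smallest margin among the flower members thus lay above the median of the root and the leaf genes.

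The mean level in flower ran from 19.69 to 18483 FPKM, with a median of 129.3 FPKM. It was at least 1000 FPKM in 23 members, from 100 to 1000 FPKM in 151, from 20 to 100 FPKM in 124 and below 20 FPKM in 2. The reads behind a member in the 3 flower libraries together numbered at least 500, with a median of 14237. The largest number, 1381111 reads, belonged to row 2361.

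Outside flower most members were near 0. The highest tissue mean among root, stem and leaf had a median of 0.691 FPKM over the members. It was below 0.1 FPKM in 78 members, from 0.1 to 1 FPKM in 91, from 1 to 10 FPKM in 102 and at least 10 FPKM in 29. The ratio of the flower mean to that highest mean had a median of 173 and ran from 20.5 to 7883 among the members with a read outside flower.

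**Figure D1:**
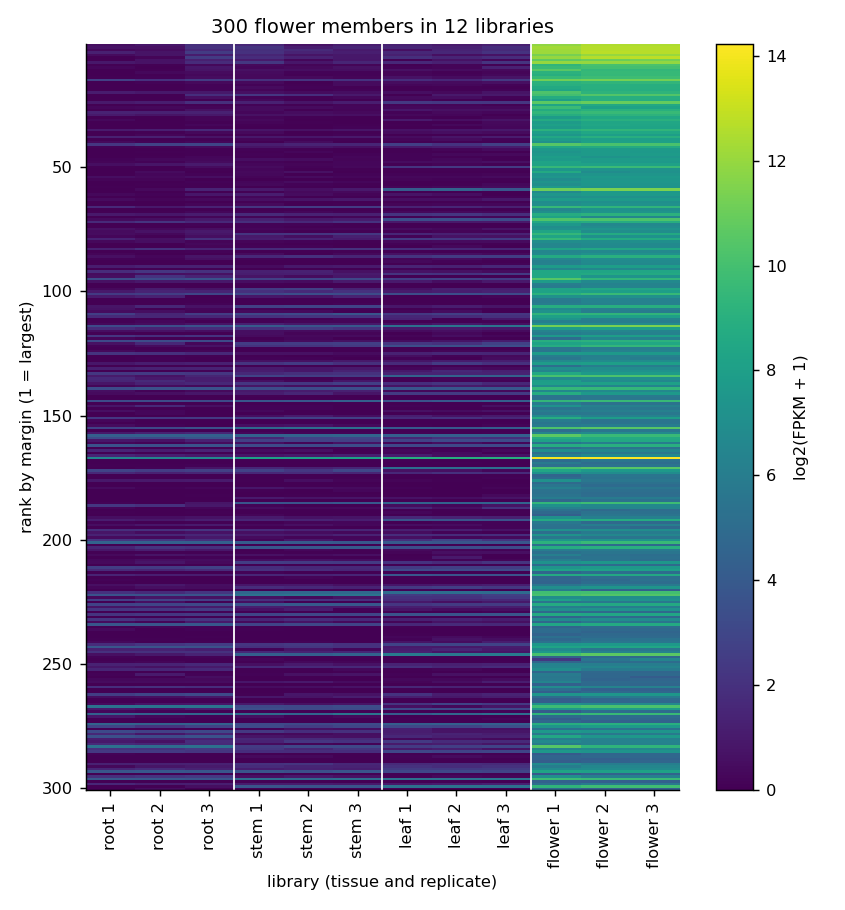
Levels of the 300 members, in rows ordered by margin, in the 12 libraries, in columns grouped by tissue. Colour gives log2(FPKM + 1). The 3 flower columns are bright throughout, and scattered rows that also show in root, stem or leaf include the row at rank 167, the member of highest flower level.

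Flower-specific here means a large margin, and few members were absent elsewhere. Reads in all 9 libraries of root, stem and leaf were found for 156 members, and 9 members had no read in any of them. In all, 21 members were at 0 in at least 8 of the 9 libraries. The members without a read numbered 43 in root, 27 in stem and 29 in leaf. Outside flower the highest mean was in leaf for 117 members (39%), in stem for 87 (29%) and in root for 87 (29%), and the 9 members at 0 had none. Over the 20769 genes tested below, those that reached 1 FPKM in 3 or more of the 12 libraries, the highest mean outside flower was in leaf for 29.6%, in stem for 21.8% and in root for 48.2%. For members below 0.1 FPKM in every other tissue, the highest was root in 15, stem in 30 and leaf in 24, which rests on few reads. The shares were not recomputed with FPKM rescaled by median ratios. The factors were 1.23 to 1.25 in root, 1.18 in stem, 1.02 to 1.03 in leaf and 0.715 to 0.758 in flower.

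Together the members held 16.1%, 17.7% and 17.8% of all FPKM in flower replicates 1 to 3, a mean of 17.2% ± 0.97 (SD, n = 3). The same genes held 0.0823% ± 0.00625 in root, 0.113% ± 0.00428 in stem and 0.158% ± 0.00421 in leaf (SD, n = 3 each). The 300 genes chosen for root held 3.29% ± 0.00554 of FPKM in root, and those chosen for leaf held 12.2% ± 0.0528 in leaf (SD, n = 3 each). The flower members thus took a larger share of their own tissue than the root or leaf genes did of theirs.

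One gene, row 2361 (828 bases), had the highest flower level of all members. It measured 17115, 19153 and 19179 FPKM in the flower libraries, which is 18483 ± 1184 FPKM (SD, n = 3) or 2.34% of all flower FPKM. Its levels were 463.3, 477.5 and 478 FPKM in leaf, 266.2, 260.7 and 273.5 FPKM in stem, and 87.45, 84.55 and 95.72 FPKM in root. The 4 tissues did not overlap, in the order flower, leaf, stem, root, and because its leaf level was so high its margin of 5.28 put it only at rank 167. The order of the tissues by the members' summed share, leaf above stem above root, was unchanged without this gene, at 0.0983% ± 0.0032, 0.0792% ± 0.00342 and 0.0707% ± 0.00552 (SD, n = 3 each).

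**Figure D2:**
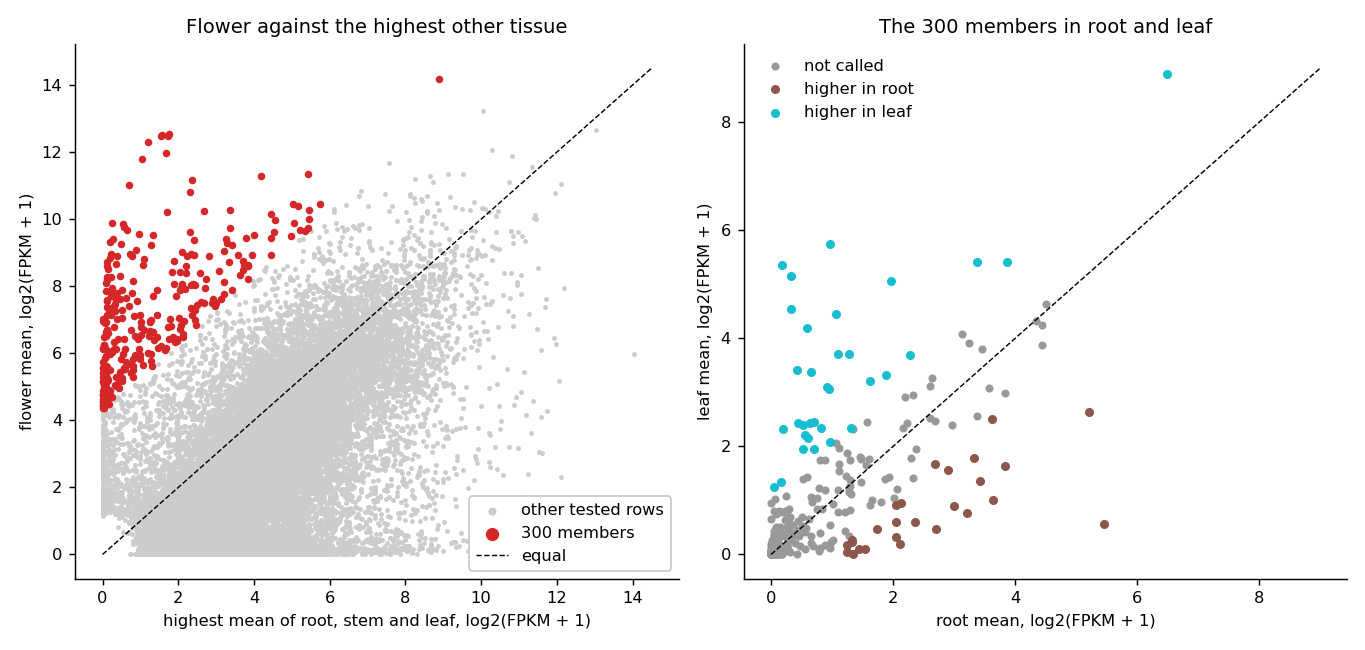
Left, the mean of flower against the highest mean of root, stem and leaf for all tested genes, both as log2(FPKM + 1), with the 300 members in red. Right, the mean of leaf against the mean of root for the members, coloured by the root and leaf comparison. Most members lie near 0 on the right, and the point at the upper right is row 2361.

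The 20 members of largest margin combined high flower levels with low levels elsewhere. Row 25608 (327 bases) led, with 3781, 5826 and 5744 FPKM in flower against 0.4398, 0.8176 and 2.724 FPKM in root, 2.047, 0.634 and 1.201 FPKM in stem, and 1.483, 1.068 and 1.363 FPKM in leaf. Its margin was 11.09, and its mean in flower was 3922 times that of the highest other tissue. Root, stem and leaf overlapped, and the lowest flower library stood far above the highest of the others.

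Row 28466 (903 bases) followed, with 4807, 6491 and 6477 FPKM in flower and at most 3.432 FPKM in any other library. Row 5267 (312 bases) measured 4530, 6454 and 6423 FPKM in flower, with 0.2305, 0.3672 and 2.087 FPKM in root, 2.822, 2.215 and 1.049 FPKM in stem, and 0.5181, 1.628 and 2.245 FPKM in leaf. Their margins were 10.94 and 10.93. In both, flower replicate 1 was the lowest of the flower libraries.

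Of the next members, row 5269 (453 bases) measured 4573, 6892 and 6611 FPKM in flower, row 5270 (288 bases) measured 4042, 6286 and 7294 FPKM, and row 5268 (444 bases) measured 2567, 4099 and 4160 FPKM. These are consecutive rows of the table together with row 5267. Row 5313 (560 bases) measured 1751, 2086 and 2459 FPKM, and row 29570 (246 bases) measured 4107, 4032 and 3900 FPKM. The latter was the steadiest across the flower libraries among the 8 members with a margin of at least 10.

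The remaining 12 of the 20 were rows 5262, 6128, 4320, 11818, 18474, 30074, 16789, 22180, 29569, 28421, 28465 and 19786, with margins from 9.63 down to 8.59. Row 16789 (600 bases) had the highest flower level of these, at 2270, 2398 and 2305 FPKM. It also had the highest levels elsewhere, with 5.393, 2.864 and 4.626 FPKM in root. Row 28465 (1989 bases) stood at the other end, with 333.2, 479.8 and 472.6 FPKM in flower and at most 0.124 FPKM in any other library. Row 4320 (1467 bases) and row 19786 (1838 bases) were well above the other flower libraries in replicate 1. Row 4320 measured 1476, 674.8 and 678 FPKM in flower, and row 19786 measured 1204, 585.6 and 609.5 FPKM.

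**Figure D3:**
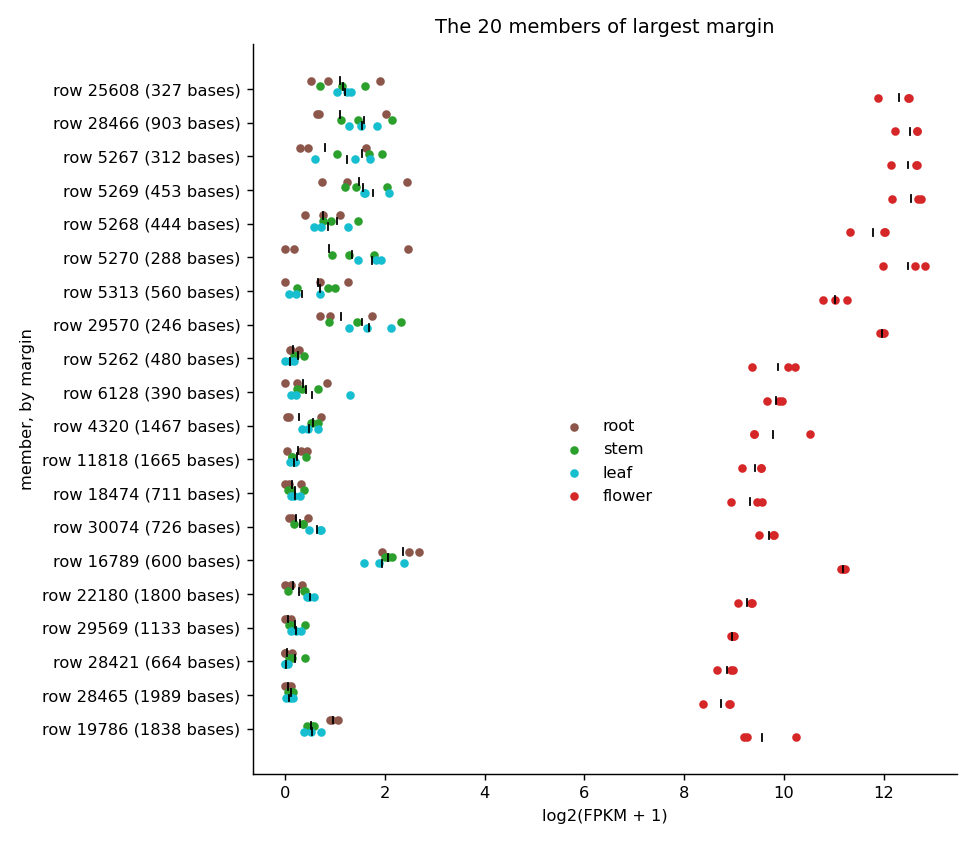
The 20 members of largest margin, in rows with their recovered lengths, in the 12 libraries. Points are libraries on the log2(FPKM + 1) scale, coloured by tissue, and black ticks are means of 3 libraries. Flower points lie far to the right in every row, and root, stem and leaf points overlap in most.

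As a group these 20 members held 5.14%, 6.57% and 6.71% of flower FPKM. In root they held 0.00138%, 0.00116% and 0.00395%, in stem 0.00344%, 0.00181% and 0.00198%, and in leaf 0.00222%, 0.00187% and 0.00311%. Root replicate 3 was the highest root library for 18 of the 20, and stem replicate 1 the highest stem library for 16. Leaf replicate 3 was the highest leaf library for 11. The reads behind these shares were few, with 200, 166 and 499 in the root libraries and 424, 231 and 292 in the stem libraries. The leaf libraries had 317, 267 and 430. The root mean of 0.00216% became 0.00127% without root replicate 3.

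This was not limited to the 20. Of the 257 members with a read in root, 142 (55.3%) were highest in root replicate 3, against 36.7% of all tested genes. Of the 273 members with a read in stem, 128 (46.9%) were highest in stem replicate 1, against 33.3% of all tested genes. Leaf was closer to an even split, with 38.4% of 271 members highest in leaf replicate 3, against 32.7% of tested genes. The number of members above 0 was 202, 214 and 245 in the root libraries and 254, 231 and 232 in the stem libraries. The part of these libraries in the low levels outside flower was not tested, beyond the counts without each library given in the comparisons of root, stem and leaf.

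The cutoff of the choice fell within a continuous range. The last members inside it were rows 1945 and 21441 (4.33 each), 26194 (4.32), 9446 (4.31) and 8702 (4.30). The first genes outside it were rows 4060 (4.30), 11030 (4.28), 10990 (4.27), 21982 (4.26) and 17184 (4.26). Row 8702 measured 27.87, 18.24 and 19.26 FPKM in flower, and row 4060 measured 41.21, 19.34 and 19.09 FPKM. In all, 1156 genes of the table had a margin of at least 2.

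The choice of members fixed the position of flower but not the order of root, stem and leaf, so these 3 tissues were compared with each other. limma was fitted on log2(FPKM + 1) over all tested genes and all 12 libraries, and a call needed a Benjamini-Hochberg adjusted p under 0.05 together with means that differed by 1 or more. All 300 members passed the filter on low values, but 179 of them did so only because of flower. The other 121 reached 1 FPKM in 3 or more of the 9 libraries of root, stem and leaf. Members held near 0 in all 3 tissues cannot differ by 1 on this scale, so a low count of calls is in part set by the choice.

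Between root and stem, 45 members (15%) were called, 19 higher in root and 26 higher in stem, against a background of 19.9% of all tested genes (8.93% higher in root and 11% higher in stem). Between root and leaf, 59 members (19.7%) were called, 26 higher in root and 33 higher in leaf, against 37.1% of tested genes (20.6% higher in root and 16.5% higher in leaf). Between stem and leaf, 37 members (12.3%) were called, 13 higher in stem and 24 higher in leaf, against 25.2% of tested genes (13.9% and 11.4%). At this setting a smaller share of members than of all tested genes was called in each pair. Of the root and leaf calls, 44.1% of members were higher in root, against 55.5% of all tested genes. When FPKM was rescaled by median ratios, these shares were 33.3% and 44%, and of the stem and leaf calls the share higher in stem moved from 35.1% to 23.5% for members and from 55% to 43.4% for all tested genes. The median differences over the members were -0.01 for root minus stem, -0.02 for root minus leaf and 0 for stem minus leaf, beside 0.08, 0.28 and 0.13 over all tested genes.

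With the filter applied to the 9 libraries only, 42, 54 and 37 of the 121 members were called (34.7%, 44.6% and 30.6%) between root and stem, root and leaf, and stem and leaf, beside 20.6%, 38.4% and 26.2% of the genes then tested. A member that passed this filter through 1 tissue alone is likely to differ between tissues, so nothing is read from these shares. The counts and their place against the background depended on the pseudocount. With 0.1 in place of 1, 82, 113 and 84 of the 300 were called (27.3%, 37.7% and 28%), beside 25.1%, 42.7% and 30.8% of tested genes, so that the members' share lay above the background between root and stem and below it in the other pairs.

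Of the 300 members, 221 (73.7%) were called in none of the 3 pairs, beside 56.4% of tested genes, and the choice of genes that are low outside flower bears on this share. Of the 121 members that passed the filter on the 9 libraries, 47 (38.8%) were called in no pair, beside 54.8% of the genes then tested. None of the 20 members of largest margin was called by limma in any pair, and most of them lay too near 0 outside flower to differ by 1 on this scale. At an unadjusted p under 0.05, 0 of the 20 differed between root and stem, 2 between root and leaf and 1 between stem and leaf, and the largest difference in any pair was 0.86 on the log2(FPKM + 1) scale. With a pseudocount of 0.1, 0, 2 and 1 of the 20 were called in these pairs. Over all 300 members, 17 (5.67%) were lower in root than in both stem and leaf, beside 8.39% of all tested genes. Likewise, 17 (5.67%) were higher in leaf than in both root and stem, beside 9.85%. In addition, 13 (4.33%) were higher in root than in both others (background 7.3%) and 7 (2.33%) were lower in leaf than in both (background 9.99%). Stem was the highest of the 3 tissues in 4 members (1.33%, background 2.17%) and the lowest in 4 (1.33%, background 0.891%). The choice of genes that are low outside flower bears on these shares too. Among the 121 members that passed the filter on the 9 libraries, 17 (14%) were lower in root, beside 8.73% of the genes then tested. Higher in leaf were 17 (14%, beside 10.2%). Higher in root were 10 (8.26%, beside 7.53%), and lower in leaf 7 (5.79%, beside 10.4%). Stem was highest in 4 (3.31%, beside 2.25%) and lowest in 4 (3.31%, beside 0.926%). Passing this filter through 1 tissue alone favours a call, so nothing is read from these values. A member with calls in all pairs counts in more than 1 of these classes.

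The members higher in stem and leaf than in root included the largest differences seen. Row 9446 (2359 bases) measured 0.01524, 0.01619 and 0.4212 FPKM in root, 12.54, 11.92 and 12.52 FPKM in stem, 38.42, 41.37 and 39.34 FPKM in leaf, and 628.3, 901.7 and 917 FPKM in flower. The tissues did not overlap and rose in the order root, stem, leaf, flower. Root minus leaf was -5.16 (SE 0.152, limma adjusted p = 2.19e-11) and root minus stem was -3.55 (SE 0.152, adjusted p = 1.7e-09) on the log2(FPKM + 1) scale.

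Rows 15764 and 25489 had the same order of tissues. Row 15764 (2740 bases) measured 0.105, 0.02788 and 0.7503 FPKM in root, 12.16, 11.32 and 14.35 FPKM in stem, and 22.53, 22.37 and 21.71 FPKM in leaf. Its root minus stem difference of -3.43 (SE 0.177) had a limma adjusted p of 9.47e-09. Row 25489 (885 bases) measured 0.4875, 0.9063 and 1.665 FPKM in root, 19.06, 18.23 and 21.7 FPKM in stem, and 55.68, 48.71 and 53.96 FPKM in leaf. Its root minus leaf difference was -4.77 (SE 0.196, limma adjusted p = 4.68e-10). In each of these 3 genes root replicate 3 was the highest root library, and it stayed below every stem and leaf library.

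Rows 851 and 12559 were high in leaf beside flower. Row 851 (355 bases) measured 34.88, 34.25 and 35.24 FPKM in leaf, against 1.984, 1.46 and 1.935 FPKM in stem and 0, 0.1076 and 0.7722 FPKM in root. Stem minus leaf was -3.68 (SE 0.183, limma adjusted p = 5.82e-09) and root minus leaf was -4.84 (limma adjusted p = 2.18e-10). Row 851 was also called lower in root than in stem, at -1.15 (limma adjusted p = 0.000188), so it too rose from root through stem to leaf. Row 12559 (141 bases) measured 16.97, 22.51 and 13.32 FPKM in leaf and at most 1.701 FPKM in root or stem, and its stem minus leaf difference was -3.35 (SE 0.311, limma adjusted p = 1.45e-06). In both genes the leaf libraries did not overlap those of root or stem.

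Other members were higher in root than in stem or leaf. Row 26629 (889 bases) measured 41.62, 45.02 and 42.9 FPKM in root, 7.409, 7.19 and 8.723 FPKM in stem, and 0.5092, 0.2143 and 0.752 FPKM in leaf. It fell in steps from root to leaf, with a root minus leaf difference of 4.90 (SE 0.141, limma adjusted p = 1.78e-11). Its flower level was 848.8, 1112 and 1159 FPKM.

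Row 15552 (1201 bases) was high in root alone among the 3 tissues. It measured 7.903, 8.809 and 8.245 FPKM in root, 0.1466, 0.3165 and 0.5721 FPKM in stem, and 0.3769, 0.6872 and 1.113 FPKM in leaf. Root minus stem was 2.80 (SE 0.154, limma adjusted p = 1.63e-08). Rows 8260, 3380, 4319 and 4412 were also called higher in root than in stem and in leaf, with root minus stem differences of 2.73, 2.35, 1.58 and 2.34.

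Stem was the highest of the 3 tissues for row 23065 (2432 bases). It measured 40.61, 43.18 and 43.78 FPKM in stem, 11.66, 10.98 and 11.38 FPKM in root, and 4.653, 3.877 and 5.563 FPKM in leaf. Stem minus leaf was 2.94 (SE 0.106, limma adjusted p = 4.06e-10), and all 3 tissues were called different from each other. Row 11373 (923 bases) measured 6.029, 3.968 and 7.161 FPKM in stem and 6.388, 4.717 and 5.568 FPKM in root, which overlapped, against 0.5605, 0.4815 and 0.1724 FPKM in leaf. Its stem minus leaf difference was 2.24 (SE 0.227, limma adjusted p = 3.13e-06).

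The flower libraries differed among themselves, and replicate 1 stood apart from replicates 2 and 3. It was the lowest flower library for 188 members (62.7%), against 34.8% of all tested genes, and the highest for 104 members (34.7%), against 48.4%. The difference between replicate 1 and the mean of replicates 2 and 3 had a median of -0.17 over the members (quartiles -0.38 and 0.21) and of 0.04 over all tested genes (quartiles -0.12 and 0.23), on the log2(FPKM + 1) scale. Replicates 2 and 3 differed by 1 or more in 0 of the 300 members and in 172 of the 20769 tested genes, which is few in both.

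The direction depended on the member. Replicate 1 was lower than both others in 19 of the 23 members with at least 1000 FPKM in flower, and in 16 of the 20 of largest margin. In contrast, it stood at least 1 above the mean of the others in 27 members (9%, against 2.01% of all tested genes) and at least 1 below it in 3 (1%, against 0.424%). The 27 had flower means from 30.2 to 943.1 FPKM, and outside flower they were highest in root for 14, in stem for 8 and in leaf for 5. Of all members, 29% were highest in root, 29% in stem and 39% in leaf, beside 48.2%, 21.8% and 29.6% of tested genes. Members below 0.1 FPKM in every other tissue had a median difference of -0.35, with replicate 1 lowest in 56 of 78. In the classes whose highest mean outside flower was from 0.1 to 1, from 1 to 10 and at least 10 FPKM, the median was -0.17, -0.07 and -0.16, and replicate 1 was lowest in 56 of 91, 55 of 102 and 21 of 29.

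Row 9247 (1343 bases) had the widest spread between flower libraries, with 3.915, 44.58 and 84.77 FPKM. The highest value was 21.65 times the lowest, and the mean of 44.42 FPKM became 64.67 FPKM without replicate 1 and 24.25 FPKM without replicate 3. The next widest were highest in replicate 1. Row 6438 (120 bases) measured 396.5, 117.8 and 148.1 FPKM, and row 4842 (1697 bases) measured 305.1, 96.73 and 93.41 FPKM. Without replicate 1 their means went from 220.8 to 133 FPKM and from 165.1 to 95.07 FPKM. The steadiest members were rows 13490, 33197 and 28800, and row 13490 (840 bases) measured 124.8, 125 and 123.8 FPKM. What sets replicate 1 apart was not tested, and the labels give no stage or organ for any flower library.

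**Figure D4:**
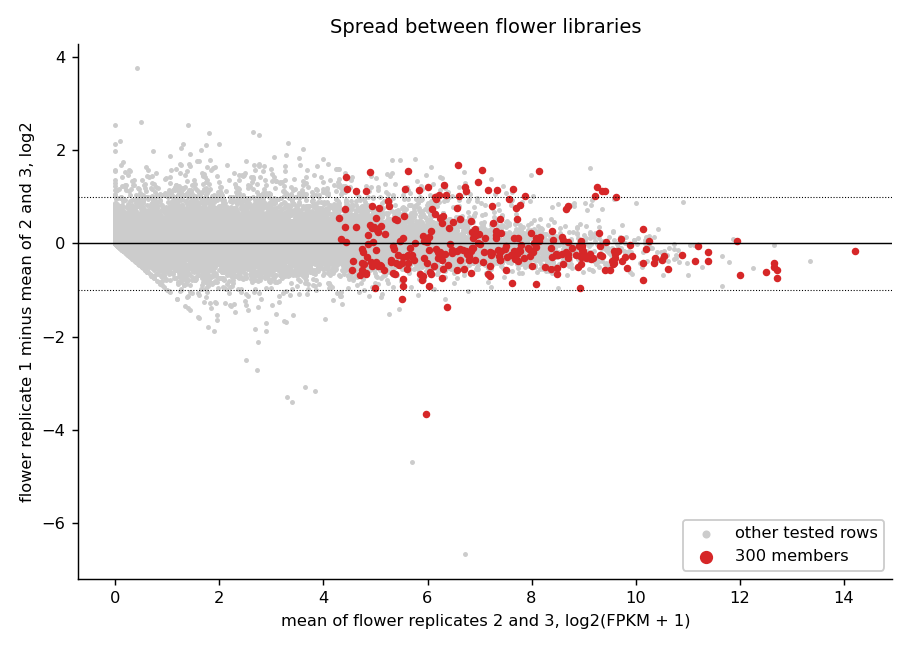
Flower replicate 1 minus the mean of replicates 2 and 3 against that mean, both from log2(FPKM + 1), for all tested genes (grey) and the 300 members (red). Dotted lines mark differences of 1 and -1. Most red points lie slightly below 0, 27 lie above the upper line, and the lowest red point is row 9247 at -3.67.

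Some members lay near each other in the table. The sources used here do not say what the order of rows stands for, so these are places in a table and not positions in a genome. Another member stood within 5 rows for 81 members (27%) and in the next row for 38 (12.7%). The 300 genes chosen for root gave 85 and 41 by the same counts, and those chosen for leaf gave 58 and 26, so the flower members lay between the other sets in both counts. There were 13 pairs of adjacent members and 3 runs of 3 or more.

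The longest run was of 6 consecutive rows, 5266 to 5271, and it lay in a stretch of 18 rows, 5259 to 5276, that held 10 members. Of these 10, 5 were among the 20 of largest margin and 8 had lengths under 500 bases. Together they measured 16643, 25249 and 26109 FPKM in flower, which is 22667 ± 5234 FPKM (SD, n = 3) and 16.5% of the FPKM of all members. Their sum was 2.247, 2.134 and 12.61 FPKM in root, 10.65, 6.635 and 4.479 FPKM in stem, and 6.814, 6.175 and 9.215 FPKM in leaf. The root mean of 5.665 FPKM became 2.19 FPKM without root replicate 3.

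Levels within the stretch were uneven. Rows 5267 to 5270 had flower means from 3608 to 6025 FPKM, row 5262 (480 bases) had 973.1 FPKM and row 5259 (402 bases) had 230.9 FPKM, while rows 5266, 5271, 5274 and 5276 lay between 22.94 and 62.42 FPKM. The 8 rows between them that were not members had at most 4.524 FPKM in flower, and 3 of these were at 0 in every library. Flower replicate 1 was the lowest for 9 of the 10 members, and row 5276 was the exception with 40.74, 35.12 and 35.59 FPKM. No member of the 300 had the same values as another row in all libraries. The sources used here do not say how reads common to similar genes were assigned, so the division of reads among similar neighbours is uncertain.

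**Figure D5:**
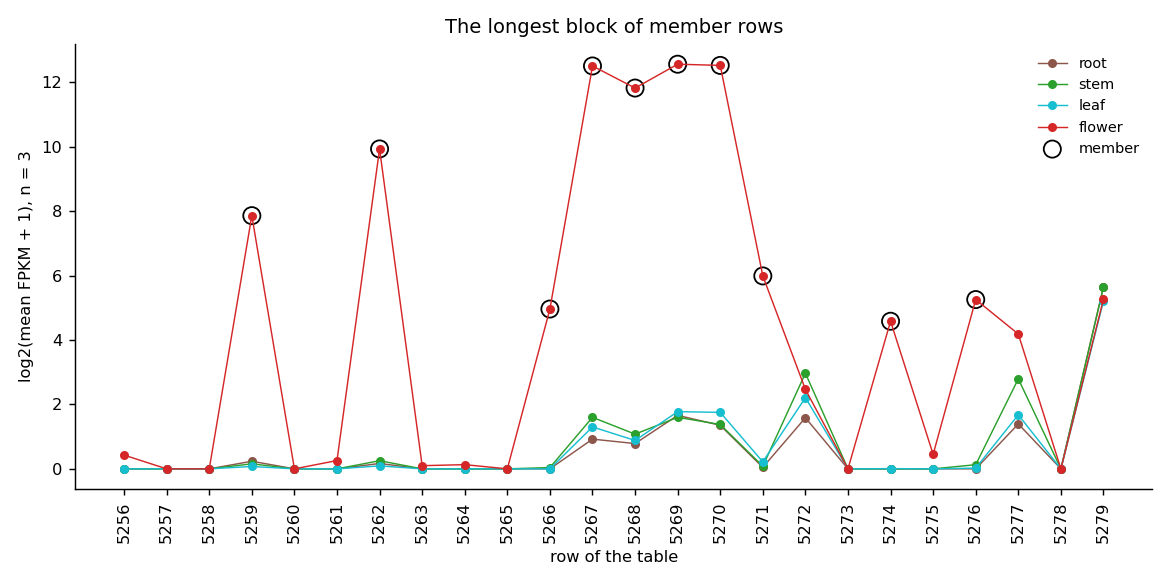
Mean level in each tissue, as log2 of the mean FPKM + 1 over 3 libraries, for the rows from 5256 to 5279 of the table. Circles mark members. Flower rises to between 3608 and 6025 FPKM in rows 5267 to 5270, and several rows between members are at or near 0 in all tissues.

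The other runs had different levels. Rows 5190, 5191 and 5192 (2397, 2067 and 2071 bases) shared a raised level in leaf. In leaf they measured 13.3, 12.2 and 11.25 FPKM, 3.426, 4.162 and 4.466 FPKM, and 12.58, 12.22 and 11.65 FPKM. All 3 were called higher in leaf than in root, with root minus leaf differences of -2.46, -2.12 and -2.62, and higher in leaf than in stem. Rows 16787, 16788 and 16789 were unlike each other, with flower means of 36.24, 50.32 and 2324 FPKM. Of the 20 members of largest margin, 11 had an adjacent member and 13 had one within 5 rows, among them the pairs 28465 and 28466, and 29569 and 29570, which lie wholly in the 20.

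In a looser group, rows 12647, 12650, 12654 and 12656, neighbours differed in how they varied across flower libraries. These 4 were named after their values were seen. Row 12647 measured 825.7, 275.7 and 287.9 FPKM and row 12650 measured 143.8, 48.38 and 48.28 FPKM, both highest in replicate 1. Row 12654, with 35.42, 40.78 and 43.82 FPKM, and row 12656, with 42.02, 65.78 and 63.97 FPKM, were lowest there.

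The lengths recovered from the values were spread widely. The members had a median length of 1230 bases (quartiles 625.8 and 1775), beside 1350 bases (745 and 2059) for all tested genes. Lengths under 500 bases were found for 60 members (20%), against 15.4% of tested genes, 12.3% of the root genes and 14% of the leaf genes. Among the members, the shorter lengths went with the highest levels. FPKM is scaled to length, so a short gene reaches a high level with fewer reads. The lengths of other genes at the same levels were not compared. The 23 members with at least 1000 FPKM had a median of 560 bases, against 1299 bases for those from 100 to 1000 FPKM, and of the 20 members of largest margin 8 were under 500 bases.

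The shortest members were rows 28041 (66 bases), 14059 (69 bases) and 8750 (87 bases), with flower means of 1203, 727.3 and 740.2 FPKM. For such lengths a few reads give much FPKM. Row 28041 had 0, 0 and 2.596 FPKM in root, from 5 reads in all. The longest were rows 12621 (5054 bases), 13881 (3972 bases) and 19225 (3612 bases), with flower means of 91.87, 26 and 66.12 FPKM.

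The 9 members without a read outside flower had modest flower levels, from 19.95 to 125.4 FPKM. Row 26943 (189 bases) was the highest, with 90.41, 149.7 and 136.1 FPKM in flower. At 264921395 reads over the 9 other libraries, a count of 0 allows up to 3 reads, or 0.0599 FPKM for this length, as a mean over those libraries and for counting error only. The next 4 were rows 28770 (317 bases), 16733 (102 bases), 22618 (351 bases) and 7768 (372 bases), with flower means of 69.57, 54.41, 46.04 and 42.53 FPKM and limits of 0.0357, 0.111, 0.0323 and 0.0304 FPKM. In all 9, flower replicate 1 was the lowest flower library.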

How the data were processed

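RNA-seq libraries of safflower root, stem, leaf and flower (3 each) were analysed, and 3 seed libraries of the series were not analysed here. Total RNA was extracted with TRIzol and libraries were made with a VAHTS Universal V6 kit, per the labels' protocols. The table deposited by the authors holds FPKM for 33242 genes. Per the submitters' processing notes the tools were fastp, HISAT2, HTSeq and R 3.2.0. Genome build, annotation and strandedness: not given in the sources used here. FPKM is relative to a library's total, so very abundant genes lower the values of others.

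Gene lengths and library totals were recovered from the deposited FPKM. The length of a gene was the smallest that made all its values whole reads, within 0.01 reads. Such a length was found for 100% of the 26625 genes above 0. A gene above 0 in few libraries meets this easily, so the 100% does not check the lengths of such genes. Library totals ran from 26183138 to 31500664 reads. Intervals from a count of 0 cover counting error only.

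The members and lists were chosen with earlier results of these data known. Tests used limma 3.58.1 in R 4.3.3 (trend) on log2(FPKM + 1) for the 20769 genes that reached 1 FPKM in 3 or more of 12 libraries, with Benjamini-Hochberg adjustment over all of them in each pair. A fold change on this scale understates the change of low genes. The fit was checked on simulated data. Deviations of libraries with the same replicate number correlated between -0.04 and 0.03, so the numbers were not treated as pairs.

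Genes were named by these rules: the 20 of largest margin; the 5 on each side of the cutoff; the 5 of highest flower level; the 5 of highest flower level among members at 0 elsewhere; in each pair of tissues the 3 of largest called difference in each direction without overlap; the 3 of largest and smallest flower spread; members in runs of 3 or more adjacent rows; and the 3 longest and shortest. Alternatives were other pseudocounts (0.1 and 10), filters, median-ratio scaling, a replicate block, fits of 9 libraries and leaving out each library. Sums without single libraries were added after seeing the data.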

Additional observations from a re-analysis of the deposited data

How the results depend on the processing

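The counts of members called between root and stem, root and leaf, and stem and leaf (45, 59 and 37) became 82, 113 and 84 with a pseudocount of 0.1 (27.3%, 37.7% and 28% of members, beside 25.1%, 42.7% and 30.8% of tested genes), and 97, 118 and 95 with no minimum difference (32.3%, 39.3% and 31.7%, beside 59.6%, 77% and 67%). With the replicate block they were 45, 59 and 37 again. Leaving out 1 library gave 44 to 50, 57 to 67 and 35 to 40. Median-ratio scaling gave 42, 57 and 34, and moved the median root minus leaf difference over all tested genes from 0.28 to 0.04 (members, -0.02 to -0.04). Without 1 flower library the filter on low values kept 151 members, with 45, 59 and 37 called. These were 29.8%, 39.1% and 24.5% of the members kept, beside about 20.5%, 38.2% and 26% of tested genes. A member then passed the filter only with a root, stem or leaf library, which sets the higher shares, so nothing is read from them. The median of flower minus the other tissues over all tested genes was -0.61 for root, -0.58 for stem and -0.48 for leaf. The median-ratio factors of flower were 0.715 to 0.758, and the margins of the root and leaf genes were not recomputed with this scaling.

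The choice of members kept 230 of 300 with a pseudocount of 0.1, 209 with a pseudocount of 10, and 292 with median-ratio scaling or with medians in place of means. Leaving out 1 library kept 289 to 300, the lowest without flower replicate 1. The 20 of largest margin were kept in all of these. Members with another member nearby numbered 38 in a window of 1 row and 103 in a window of 10 rows. Members with no read in at least 8 of the 9 other libraries numbered 21, which include the 9 with no read in any. Of 342 alternatives for 18 named differences between root, stem and leaf, all kept their direction and their call. These 18 were picked as the largest called differences, so this was largely set by the choice and says nothing of smaller differences. Of 930 alternatives for the margins of 62 named members, 147 moved by more than the spread between replicates and none changed sign, with a lowest margin of 1.57. Members were chosen for a large margin, so a change of sign was unlikely from the start.

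Levels below about 0.1 FPKM outside flower rest on a few reads. With 3 libraries a tissue, the spread itself is known only roughly.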
